A study of Rattus norvegicus with 65 samples.

Results

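The melanocortin receptors and accessory proteins measured here were the 5 genes Mc3r, Mc4r, Mc5r, Mrap and Mrap2, taken by symbol from a count table of 38513 genes. RNA of the whole hypothalamus was sequenced from 65 male Wistar rats, 1 library per animal, in 8 groups and in batches A (37 animals) and B (28 animals). In all groups but the lean one, the rats were 9 to 10 weeks old at the start and were made obese by 6 weeks of high-fat diet. Of these, 14 underwent Roux-en-Y gastric bypass (RYGB, labelled Bypass; 11 in batch A and 3 in batch B), 11 a sham operation (5 and 6), and 7 were fed less so that their weight followed that of the RYGB group (BWM, all in batch A). A further 8 received saline only (3 and 5), 4 received PYY3-36 at 0.1 mg/kg/day by osmotic minipump (batch B), 5 received liraglutide at 0.4 mg/kg/day under the skin (batch B), and 10 received both hormones (PYY3-36 + liraglutide, 5 and 5). The single-hormone groups were given saline by the other route. The paper's abstract names the BWM group as sham-operated as well as weight-matched. Of the obese groups, all but BWM had a choice of high- and low-fat diets afterwards, and their tissue was taken after 4 weeks and 10 h of fasting. The 6 lean animals (batch A) carry no age, diet, time or fasting in the labels and were read as rats kept on low-fat food. Total counts ran from 20040821 to 36539714 per library.

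Melanocortin receptors are G protein-coupled receptors that raise cyclic AMP. In the hypothalamus, Mc3r and Mc4r are activated by α-MSH, a peptide cut from the precursor Pomc in neurons of the arcuate nucleus, and are blocked by Agrp from neighbouring neurons. Mc4r of the paraventricular nucleus restrains food intake, and its loss causes obesity. Mc3r sits on many arcuate and ventromedial neurons and takes part in energy partitioning and the response to fasting. Mc5r is best known from exocrine glands. Mrap and Mrap2 are small single-pass membrane proteins that bind the receptors. Mrap carries the ACTH receptor Mc2r to the cell surface, and Mrap2 modulates Mc4r and other receptors in the brain.

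The libraries were checked against 12 genes that mark the hypothalamus. These were Nkx2-1, Rax, Sim1, Otp, Pomc, Agrp, Avp, Oxt, Hcrt, Pmch, Trh and Crh. Their summed level had a median of 1735 CPM (counts scaled to library size) over the 65 libraries. In 12 libraries it lay between 15.99 and 175 CPM, and in the other 53 between 440 and 8213 CPM. The 12 low libraries were BWM replicate 1, lean replicates 2 and 5, liraglutide replicates 3 and 4, PYY3-36 replicate 2, PYY3-36 + liraglutide replicate 8, saline replicates 3 and 4, and sham replicates 2, 6 and 10. No RYGB library was among them. Striatum genes had a median sum of 1346 CPM in the low libraries and 503 CPM in the others, and cortex genes 1039 and 348 CPM. The median normalized count of Mc3r was 8.26 in the low libraries and 84.1 in the others, that of Mrap2 was 926 and 2109, and that of Mc4r was 183 and 118. The results for these genes are therefore given with all libraries and without those 12. In bulk tissue, fewer cells of a type and less RNA per cell cannot be told apart.

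Mrap2 was by far the most abundant of the 5 transcripts. Per kilobase of exon, its median over 65 libraries was 31.1 CPM, against 2.51 for Mc3r, 2.49 for Mc4r, 0.154 for Mrap and 0.0391 for Mc5r. The ratio of the medians was 12.4 for Mrap2 to Mc3r and 1.01 for Mc3r to Mc4r. All 5 genes passed the filter on low counts, but Mc5r reached at most 20 counts in a library and was at 0 in 6 libraries, and Mrap was at 0 in 12. Mrap exceeded 20 counts in BWM replicates 6 and 7 (186 and 30 counts). On the rat genome Rnor_6.0, Mc3r is a single-exon gene on the plus strand of chromosome 3 (170252901 to 170253998), and Mc4r lies on the minus strand of chromosome 18 (62612838 to 62614725). Mc5r is on chromosome 18 as well (64113659 to 64118700, plus strand), Mrap is on chromosome 11 (30904733 to 30915225, plus strand) and Mrap2 on chromosome 8 (94801336 to 94858192, plus strand). Of the 65 values of Mrap2, 15 were not whole, because reads with several places or genes were counted as fractions. The same held for 1 value of Mc4r and 3 of Mc5r, and for none of Mc3r and Mrap.

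**Figure D1:**
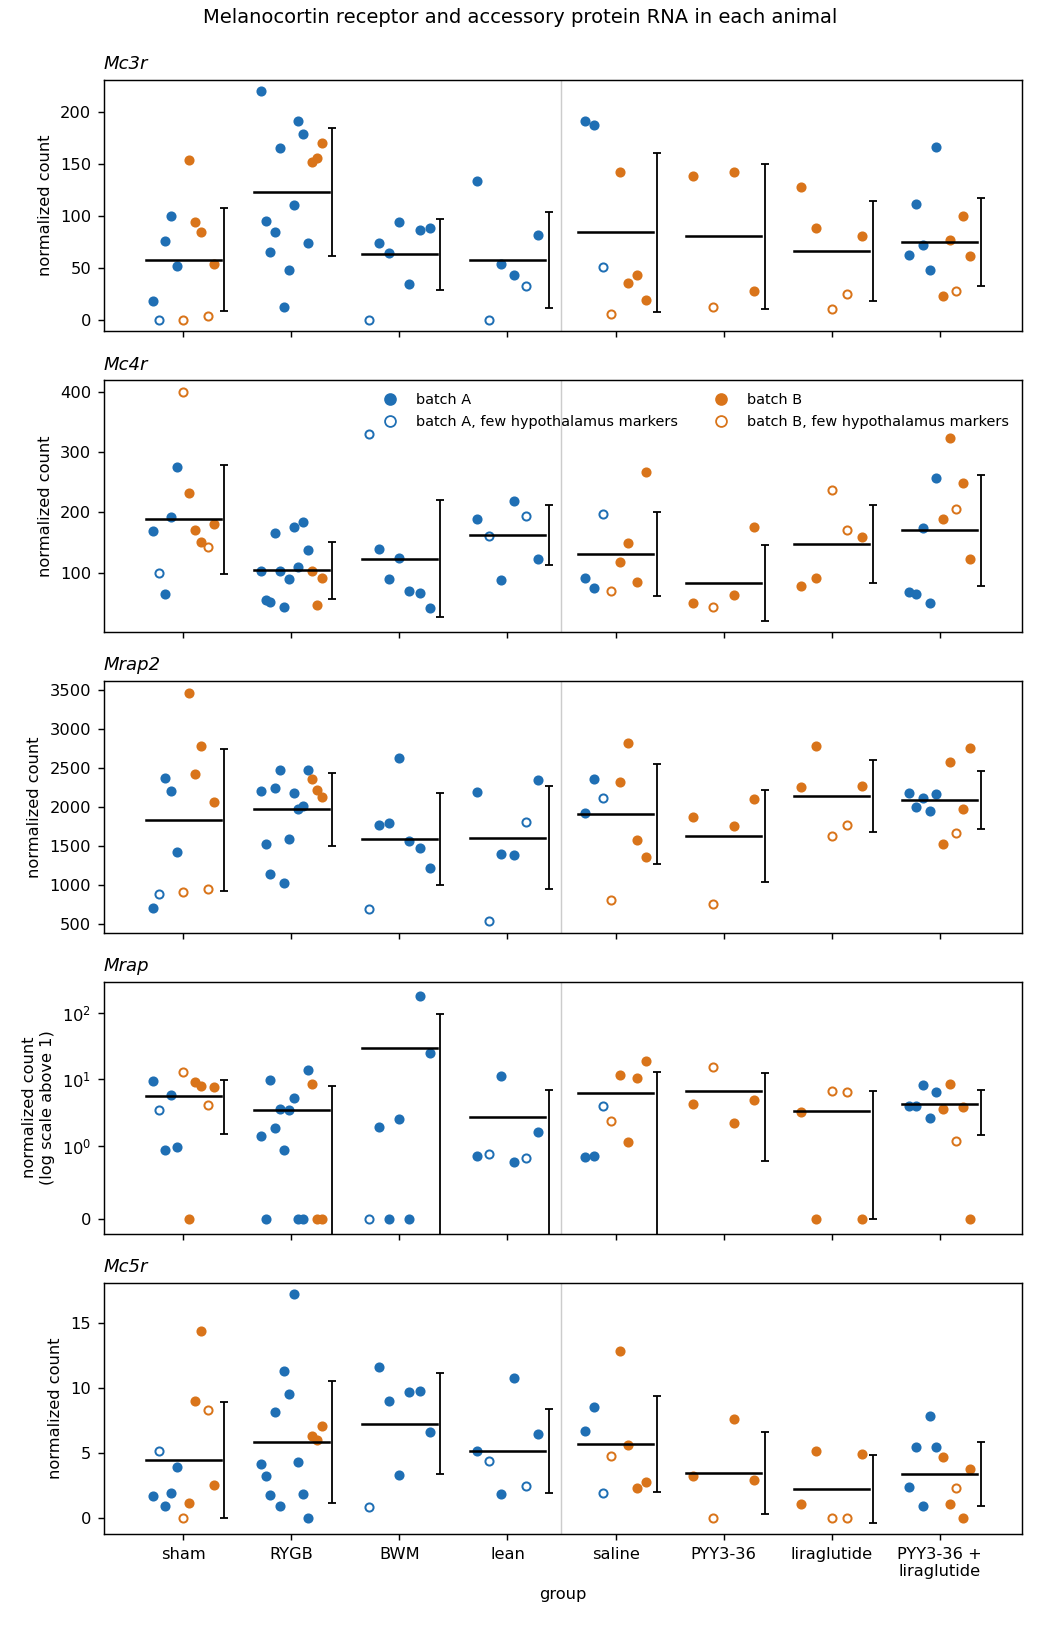
Normalized counts of Mc3r, Mc4r, Mrap2, Mrap and Mc5r by group, 1 point per animal, blue for batch A and orange for batch B, open for the 12 libraries with few hypothalamus markers, with lines for the mean and bars for 1 SD. Mc3r was at 0 in 4 open points, 12 of 14 RYGB animals lay below the sham median of Mc4r, and BWM replicate 6 reached 182 normalized counts of Mrap, drawn on a scale that is logarithmic above 1.

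Pooled over batches, Mc3r had its highest mean in the RYGB group. Within batch A the saline mean was higher, at 143 ± 79.8 normalized counts (SD, n = 3) against 113 ± 66.3 (SD, n = 11) in RYGB animals. Sham-operated animals had between 0 and 154 normalized counts with a median of 54.1, and RYGB animals between 12.2 and 220 with a median of 131. The groups overlapped, and 12 of 14 RYGB animals were above the sham median. RYGB vs. sham gave a log2 fold change of 1.004 ± 0.58 (SE, 95% confidence interval -0.15 to 2.16, edgeR quasi-likelihood adjusted p = 0.235), which did not pass the threshold of 0.05. In this comparison 13% of the 21871 genes tested passed it, and 0 of the 5 melanocortin genes did (1 at an unadjusted p under 0.05, as 6570 of all genes were, and 0 by DESeq2). Within batch A the log2 fold change of Mc3r was 1.19 ± 0.77 (SE) and within batch B 1.28 ± 0.92, and the difference between batches was 0.090 ± 1.20 (edgeR adjusted p = 0.989). The 3 RYGB animals of batch B had 152, 155 and 170 normalized counts.

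The lowest values came from the libraries with few hypothalamus markers. Mc3r was at 0 in sham replicates 2 and 6, in BWM replicate 1 and in lean replicate 2. A count of 0 allows up to 3 counts, or 2.55 to 4.36 normalized counts at these depths (counting error only), so these libraries were below every RYGB animal. Without the 12 low libraries, the sham mean was 78.9 ± 40.3 (SD, n = 8) instead of 57.7 ± 49.5 (SD, n = 11), and the RYGB mean was 123 ± 61.5 (SD, n = 14) either way. For RYGB vs. sham the log2 fold change was then 0.60 ± 0.40 (SE, edgeR adjusted p = 0.349).

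BWM animals serve to set the operation apart from the lower weight. The match was not complete, as the paper reports that they were heavier than RYGB animals at the end. BWM animals had between 0 and 93.8 normalized counts of Mc3r with a median of 73.5, and their values lay within the RYGB range in all but replicate 1. RYGB vs. BWM gave 1.02 ± 0.66 (SE, 95% confidence interval -0.30 to 2.35, edgeR adjusted p = 0.509). Without the 12 libraries it was 0.77 ± 0.44 (SE, edgeR adjusted p = 0.359). For BWM vs. sham it was -0.020 ± 0.72 (95% confidence interval -1.45 to 1.41, edgeR adjusted p = 0.995). The order of the group means ran from RYGB (123) over saline (84.4), PYY3-36 (80.3), PYY3-36 + liraglutide (74.9), liraglutide (66.5), BWM (63.1) and sham (57.7) to lean (57.6). None of the 7 neighbouring pairs in that order was further apart than 1 pooled SD.

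Mean Mc4r in RYGB and sham animals was 111 ± 50.0 (SD, n = 11) and 160 ± 82.3 (SD, n = 5) normalized counts in batch A, and 79.8 ± 29.7 (SD, n = 3) and 213 ± 96.8 (SD, n = 6) in batch B. Sham animals had between 64.3 and 400 normalized counts (median 170) and RYGB animals between 43.3 and 184 (median 103). The groups overlapped, with 12 of 14 RYGB animals below the sham median. The difference on the log2 scale was -0.75 ± 0.32 (SE, 95% confidence interval -1.38 to -0.11, unadjusted p = 0.0216 and adjusted p = 0.101 by edgeR). It thus missed the threshold after adjustment over all genes, and it was -0.69 ± 0.32 without the 12 libraries (edgeR adjusted p = 0.164). Without a batch term it was -0.88 ± 0.30 and passed (edgeR adjusted p = 0.0263).

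The sign was negative in both batches. Within batch A the log2 fold change of Mc4r was -0.55 ± 0.39 (SE, edgeR adjusted p = 0.386). Within batch B it was -1.42 ± 0.56 (SE, edgeR adjusted p = 0.126), and 2.74% of genes were called. There the 3 RYGB animals had 102, 46.1 and 90.9 normalized counts and the 6 sham animals 142 to 400. The share of all genes with ranges apart in these animals was not counted. The difference between batches was -0.87 ± 0.67 (SE, edgeR adjusted p = 0.698). Without the low libraries, the log2 fold change of Mc4r within batch B was -1.205 ± 0.54 (SE, edgeR adjusted p = 0.272), and 0 genes were called.

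In BWM animals, Mc4r was at 330, 139, 90.1, 125, 69.1, 67.3 and 42.3 normalized counts. Replicate 1, a low library, was the highest. BWM vs. sham gave a log2 fold change of -0.44 ± 0.39 (SE, 95% confidence interval -1.22 to 0.34, edgeR adjusted p = 0.694) with all libraries and -0.88 ± 0.40 (SE, edgeR adjusted p = 0.319) without the 12. That of RYGB vs. BWM changed sign with the same choice, from -0.31 ± 0.34 to 0.19 ± 0.35 (SE, edgeR adjusted p = 0.730 and 0.811). Pooled over batches, the order of means was sham (189), PYY3-36 + liraglutide (170), lean (162), liraglutide (147), saline (132), BWM (123), RYGB (104) and PYY3-36 (83.0), and no neighbours differed by more than 1 pooled SD. Per kilobase of exon, Mc4r exceeded Mc3r in 9 of 11 sham animals, in 4 of 14 RYGB animals and in 35 of all 65. These counts include the 12 low libraries, of which 3 are sham and 0 RYGB, and were not made without them.

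The levels of Mc3r and Mc4r went with marker genes of different regions. For each gene, deviations from the mean of its group and batch were correlated with those of summed marker genes, as a description over animals that share the dissection, library preparation and scaling. Over the 53 libraries with hypothalamus markers, Mc3r had a Pearson correlation of 0.83 (Spearman 0.82) with the ventromedial nucleus genes Nr5a1, Fezf1 and Sox14. It was 0.92 in the 32 libraries of batch A and 0.65 in the 21 of batch B. Without the 2 libraries farthest from the median of the ventromedial sum it was 0.77. For the arcuate list it was 0.44 and for the paraventricular list -0.071. The strongest negative value for Mc3r was -0.56, with the cortex genes (-0.62 in batch A and -0.44 in batch B). Mc4r instead had a correlation of 0.54 with striatum genes (0.59 in batch A and 0.46 in batch B), of 0.37 with the paraventricular list and of 0.27 with the ventromedial list. Its strongest negative value was -0.47, with the sparsely counted adipocyte genes Adipoq, Plin1, Fabp4 and Cidec.

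Beside the differences between RYGB and sham animals stand the levels of these markers. The summed ventromedial genes ran from 0.363 to 45.5 CPM in sham animals and from 1.83 to 72.2 CPM in RYGB animals, and all 3 had a positive log2 fold change (median 0.72) with 0 called by edgeR and 0 at an unadjusted p under 0.05. Nr5a1 was at 0 in 1 library, Fezf1 in 2 and Sox14 in 8. The 7 striatum genes (among them the dopamine receptors Drd1 and Drd2) summed to between 254 and 5497 CPM in sham animals and between 373 and 772 CPM in RYGB animals. All 7 had a negative log2 fold change (median -1.17) with 0 called by edgeR and 5 at an unadjusted p under 0.05, as 6570 of all 21871 genes were, and none was at 0 in any library. Without the 12 libraries the medians were 0.32 and -0.63. Their part in the differences of Mc3r and Mc4r was not tested.

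**Figure D2:**
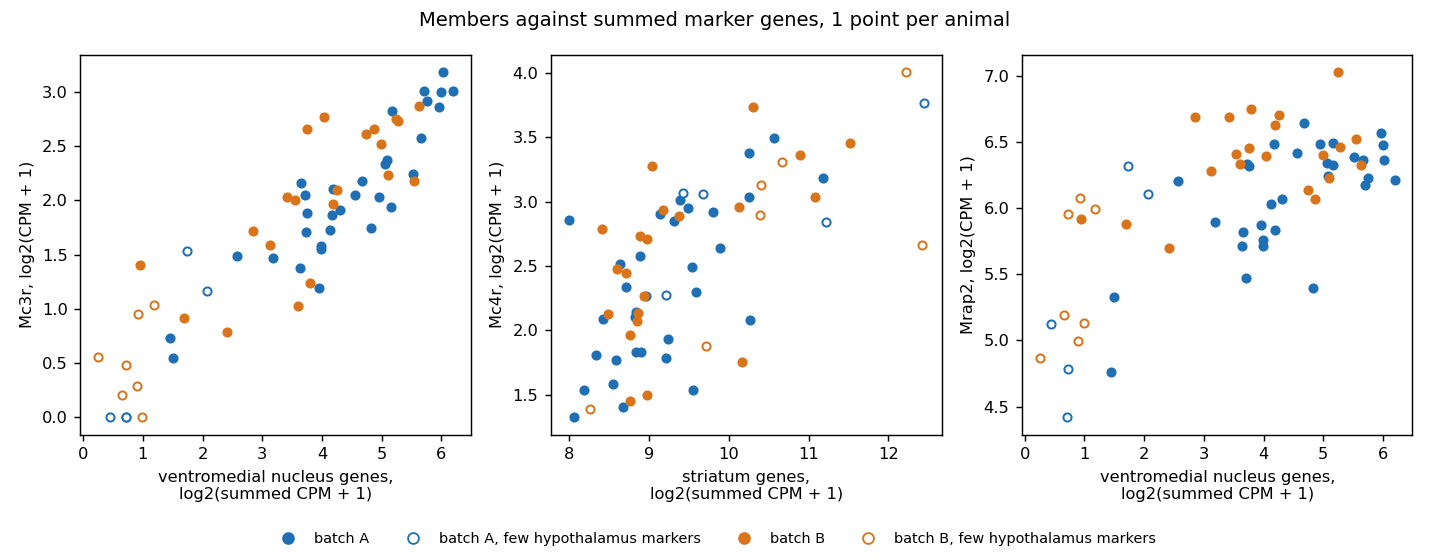
Log2(CPM + 1) of Mc3r, Mc4r and Mrap2 against the log2 of the summed CPM + 1 of ventromedial nucleus or striatum genes, 1 point per animal (blue, batch A; orange, batch B; open, 12 libraries with few hypothalamus markers). Mc3r was higher where the ventromedial sum was higher in both batches, and the open points have a median of 8.26 normalized counts of Mc3r.

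Mrap2, the accessory protein of the brain, had group means between 1590 normalized counts in BWM and 2139 in liraglutide animals. Sham animals had between 702 and 3462 normalized counts (median 2058), RYGB animals between 1029 and 2474 (median 2152) and BWM animals between 694 and 2621 (median 1564). All of these overlapped. RYGB vs. sham gave a log2 fold change of 0.14 ± 0.22 (SE, 95% confidence interval -0.30 to 0.58, edgeR adjusted p = 0.694) and became -0.061 ± 0.18 without the 12 libraries (edgeR adjusted p = 0.863). For BWM vs. sham it was -0.12 ± 0.27 (SE, 95% confidence interval -0.67 to 0.42, edgeR adjusted p = 0.891). The order of means was liraglutide (2139), PYY3-36 + liraglutide (2088), RYGB (1967), saline (1911), sham (1832), PYY3-36 (1624), lean (1607) and BWM (1590), with no neighbours more than 1 pooled SD apart.

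Across animals, Mrap2 and Mc3r varied together. Over 53 libraries the correlation of their deviations was 0.56 (Spearman 0.50), with 0.65 in batch A and 0.36 in batch B, and it was 0.77 over all 65 libraries. Over the 53, it was 0.445 without the 2 libraries farthest from the median of Mrap2, and 0.50 without the 2 farthest for Mc3r. Mrap2 had a correlation of 0.64 with the ventromedial list. Between Mrap2 and Mc4r, its known partner, it was 0.24, and between Mc3r and Mc4r 0.12. The 250 bases before the start of Mc3r and Mrap2 are shown because these are the 2 members that varied together. They were taken from RefSeq, where 3 of the 5 members matched an entry (not Mrap and Mc5r), on the later build GRCr8, chr3:181434526-181434775 for Mc3r and chr8:96967989-96968238 for Mrap2, both on the plus strand and written 5′ to 3′. Capitals mark the motifs found.
Mc3r: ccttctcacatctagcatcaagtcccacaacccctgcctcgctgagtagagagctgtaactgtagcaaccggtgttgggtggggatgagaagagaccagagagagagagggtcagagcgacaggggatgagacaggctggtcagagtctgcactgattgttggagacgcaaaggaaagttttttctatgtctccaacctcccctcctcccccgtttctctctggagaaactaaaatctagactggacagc
Mrap2: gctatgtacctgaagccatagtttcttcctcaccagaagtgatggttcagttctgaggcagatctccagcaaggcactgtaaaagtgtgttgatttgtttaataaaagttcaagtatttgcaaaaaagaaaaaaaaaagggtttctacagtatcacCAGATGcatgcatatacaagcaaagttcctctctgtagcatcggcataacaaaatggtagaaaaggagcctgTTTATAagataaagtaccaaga
The Mc3r sequence had 52.4% G or C and that of Mrap2 37.6%, against a median of 51.2% over all promoters. Both strands were searched for 6 motifs. Of 33469 promoters of that length, 12.9% held TATAAA, 34.0% held CCAAT, 30.5% held GGGCGG, 1.59% held TGACGTCA, 65.5% held CANNTG and 7.67% held TTCNNNGAA. Mc3r held none of them. Mrap2 held TATAAA on the minus strand 22 bases before the start and CANNTG 94 bases before it.

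Mrap, the accessory protein of the ACTH receptor, was the only member with a difference past the threshold, and it rested on 1 animal. In BWM animals its normalized counts were 0, 1.94, 0, 2.51, 0, 182 and 24.9, in the order of the replicates. In RYGB animals they ran from 0 to 13.9 (median 1.597) and in sham animals from 0 to 13.1 (median 5.82). BWM replicates 6 and 7 were above all other animals of the study, and the other 5 BWM animals were within the RYGB range. Mrap was lower in RYGB than in BWM animals by a log2 fold change of -3.22 ± 0.79 (SE, edgeR adjusted p = 0.0469), in a comparison in which 0.343% of genes passed, 0.334% lower and 0.00914% higher. Leaving out BWM replicate 6 changed it to -0.58 (edgeR adjusted p = 0.853). The call held in 7 of 21 fits that left out 1 animal each, and was lost without BWM replicate 5 or 6 and without any of RYGB replicates 1, 2, 4 to 10 and 12 to 14. BWM replicate 5, in which Mrap was at 0, stood apart with 76770 CPM of pituitary genes, against 415 CPM in replicate 6, 1124 CPM in replicate 7 and 1.14 to 12.7 CPM in the other 4. In RYGB animals these genes summed to between 2.02 and 497 CPM, and 6 of the 8 tested were called lower in RYGB vs. BWM (median log2 fold change -6.14). Without that library the Mrap log2 fold change was -3.41 (edgeR adjusted p = 0.107; Mrap, RYGB vs. BWM) and 2 genes of all were called. The part of pituitary RNA in the Mrap result was not tested. Within batch A, which holds all BWM animals, the Mrap log2 fold change was -3.08 ± 0.84 (SE, edgeR adjusted p = 0.141). For BWM vs. sham it was 2.66 ± 0.92 (SE, edgeR adjusted p = 0.186; 0.32% of genes passed, 0.311% higher and 0.00914% lower), and 0.028 without BWM replicate 6 (edgeR adjusted p = 0.991). It was 2.62 ± 1.05 for BWM vs. saline (SE, edgeR adjusted p = 0.708; 0.0412% of genes passed, all higher) and 3.47 ± 1.08 for BWM vs. lean (SE, edgeR adjusted p = 0.462; 0.0274% passed, all higher). DESeq2 called 0 of the 5 members in these comparisons.

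Mc5r was low throughout. It had between 0 and 14.5 normalized counts in sham animals, between 0 and 17.3 in RYGB animals and between 0.850 and 11.6 in BWM animals. Its log2 fold change was 0.45 ± 0.53 for RYGB vs. sham (SE, 95% confidence interval -0.61 to 1.52) and 0.77 ± 0.64 for BWM vs. sham (SE, 95% confidence interval -0.51 to 2.06). Neither passed the threshold (edgeR adjusted p = 0.596 and 0.665).

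**Figure D3:**
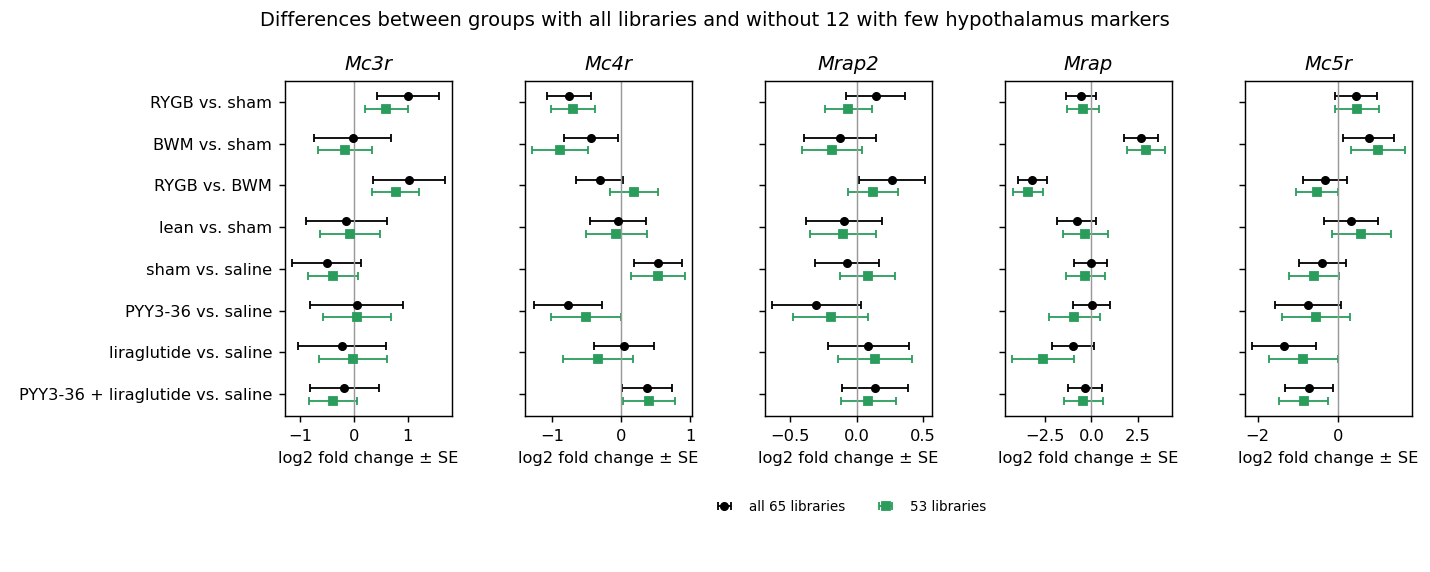
Log2 fold change ± SE of Mc3r, Mc4r, Mrap2, Mrap and Mc5r in 8 comparisons, with all 65 libraries (black circles) and without the 12 libraries with few hypothalamus markers (green squares). RYGB vs. sham lay at 1.004 for Mc3r and -0.75 for Mc4r with all libraries, and the largest differences were those of Mrap with BWM animals, which rested on 1 library.

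The gut hormone treatments, alone and together, were compared with saline for the same genes. None of the 5 genes passed the threshold in any hormone group vs. saline (edgeR; 0 at an unadjusted p under 0.05, 0 by DESeq2), where 0% of all genes were called for PYY3-36, 0% for liraglutide and 0.00457% for the combination. Of all 21871 genes, 1649, 456 and 554 were at an unadjusted p under 0.05 by edgeR, in the same order. Saline animals had between 5.95 and 191 normalized counts of Mc3r (median 47.1). PYY3-36 animals had 139, 12.8, 142 and 27.5, and liraglutide animals 128, 88.2, 10.6, 24.9 and 80.9. The lowest values of these 3 groups came from saline replicate 4, PYY3-36 replicate 2 and liraglutide replicate 3, all low libraries. Animals given both hormones had between 23.5 and 166 (median 67.1).

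For Mc4r, saline animals ranged from 70.2 to 267 normalized counts (median 105). PYY3-36 animals had 49.4, 43.5, 63.4 and 176, liraglutide animals 78.0, 90.8, 238, 171 and 159, and those given both between 50.7 and 323 (median 182). Liraglutide replicates 3 and 4, with 238 and 171, were low libraries, as was PYY3-36 replicate 2 with 43.5. All 4 groups overlapped. Relative to saline, the log2 fold change was -0.77 ± 0.48 for PYY3-36 (SE, 95% confidence interval -1.74 to 0.21), 0.047 ± 0.44 for liraglutide (SE, -0.83 to 0.92) and 0.38 ± 0.36 for both (SE, -0.33 to 1.09). The hormone interaction within batch B, the difference of the combination from the sum of the single hormones, was 1.31 ± 0.69 (SE, edgeR unadjusted p = 0.0639, adjusted p = 0.465).

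Mrap2 had the narrowest intervals, with log2 fold changes vs. saline of -0.30 ± 0.33 for PYY3-36 (SE, 95% confidence interval -0.96 to 0.36), 0.089 ± 0.31 for liraglutide (SE, -0.52 to 0.70) and 0.14 ± 0.25 for both (SE, -0.36 to 0.63). Its PYY3-36 values were 1873, 761, 1760 and 2102 normalized counts and its liraglutide values 2259, 2778, 1629, 1766 and 2264. The lowest animal of each was a low library here too. For Mc5r the log2 fold changes lay between -1.33 and -0.71, and for Mrap between -0.9999 and 0.0096.

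No difference between the control groups passed the threshold in these genes. For sham vs. saline the log2 fold change was -0.50 ± 0.64 for Mc3r and 0.53 ± 0.35 for Mc4r (SE, edgeR adjusted p = 0.776 and 0.529), where 0.0137% of genes were called, all lower. For Mc3r this was -1.54 ± 0.96 within batch A and 0.39 ± 0.83 within batch B. Relative to saline instead of sham, RYGB stood at 0.50 ± 0.61 for Mc3r and -0.21 ± 0.35 for Mc4r (SE, edgeR adjusted p = 0.9999 for both). The Mc3r value had opposite signs in the batches, at -0.35 ± 0.84 within batch A and 1.67 ± 0.96 within batch B (SE, edgeR adjusted p of 1 and 0.513). The difference between batches of RYGB vs. saline was not tested. For lean vs. sham, the values were -0.14 ± 0.75 for Mc3r and -0.042 ± 0.40 for Mc4r (SE, edgeR adjusted p = 0.959 and 0.977). In lean vs. sham 0% of genes were called, but 1081 genes without lean replicate 6. The batch term ran from -0.22 ± 0.43 for Mc3r to 0.42 ± 0.65 for Mrap over the 5 members (SE, edgeR adjusted p between 0.368 and 0.838), while 40.7% of all genes differed between batches.

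The genes most like each member over the animals were found from deviations from the mean of group and batch in all 65 libraries. For Mc3r they included Fezf1 (Pearson 0.91), a transcription factor of the ventromedial nucleus that is in the marker list above, and P2rx2 (0.89), an ATP-gated channel. Without the 12 low libraries these correlations were 0.81 and 0.76. For Mc4r they were the homeobox genes Dlx5 (0.80) and Dlx6 (0.75), which specify forebrain GABA neurons, and Slc32a1 (0.76), the vesicular GABA transporter, with 0.78, 0.73 and 0.71 in 53 libraries. Mrap2 was most like Tspyl2 (0.92), Tmem130 (0.91) and Fxyd6 (0.91). For Mrap the leading gene was S100a5 (0.87), with a Spearman correlation of only 0.41, then Cyp39a1 (0.78, Spearman 0.48) and Slc43a3 (0.66, Spearman 0.29). The highest for Mc5r was Fzd9 at 0.45, followed by the 2 annotated rows of Thpo (0.44 and 0.42), in counts too sparse to be read.

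The other genes of the pathway were a list of 21, of which 19 passed the filter. In RYGB vs. sham, 2 of the 19 were higher and 0 lower, beside 6.52% and 6.53% of all genes. These were Gnaq, the G protein subunit of phospholipase C signalling, and Ntrk2, the receptor of the neurotrophin Bdnf. On the list, the median log2 fold change was 0.20, against -0.017 over all genes, and 15 of 19 were positive. In the other 13 comparisons 0 of 19 passed (edgeR; 21 of 247 tests at an unadjusted p under 0.05), where 375 to 2812 of all 21871 genes were at an unadjusted p under 0.05 in each comparison and between 0% and 0.343% were called.

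Gnaq ran from 134 to 672 normalized counts in sham animals (median 167) and from 149 to 974 in RYGB animals (median 577). Sham animals had the lowest median of the 8 groups, and the other 7 medians lay between 375 and 674. RYGB vs. sham gave a log2 fold change of 1.18 ± 0.27 (SE, edgeR adjusted p = 0.00429), and 1.27 ± 0.31 without the 12 low libraries (edgeR adjusted p = 0.0214). Within batch A it was 0.94 ± 0.36 (edgeR adjusted p = 0.0892) and within batch B 1.61 ± 0.44 (edgeR adjusted p = 0.0388). Without the low libraries Gnaq was called in neither batch alone. It was 1.106 ± 0.41 within batch A and 1.61 ± 0.51 within batch B (SE, edgeR adjusted p = 0.110 and 0.157). RYGB vs. saline gave 0.28 ± 0.29, sham vs. saline -0.91 ± 0.30 and lean vs. sham 1.01 ± 0.34 for Gnaq (SE, edgeR adjusted p = 0.9999, 0.233 and 0.249). Ntrk2 ran from 10140 to 15060 in sham animals (median 11340) and from 9645 to 20130 in RYGB animals (median 15000), with a log2 fold change of 0.34 ± 0.10 (SE, edgeR adjusted p = 0.0257). Within batch A it was 0.24 ± 0.13 (edgeR adjusted p = 0.230) and within batch B 0.64 ± 0.16 (edgeR adjusted p = 0.0290). That call was lost without the 12 libraries (0.28 ± 0.11, edgeR adjusted p = 0.120), where Gnaq alone of 20 tested list genes passed and 5.36% of genes were called. It was also lost, with adjusted p between 0.0511 and 0.0658, without any of RYGB replicates 12, 13 and 14 and sham replicates 2 and 5 (Ntrk2, RYGB vs. sham). Within batch B without the low libraries, Ntrk2 stood at 0.54 ± 0.17 (SE, edgeR adjusted p = 0.151), and 0 genes were called.

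The ligands spread widely. Pomc ran from 70.2 to 29070 normalized counts in sham animals (median 1338) and from 43.3 to 27790 in RYGB animals (median 1863), with a log2 fold change of 0.079 ± 0.93 (SE, edgeR adjusted p = 0.966). It was -0.37 ± 0.91 without the 12 libraries, which were picked by a sum of genes that includes Pomc itself. Pituitary genes, whose tissue also makes Pomc, summed to between 3.39 and 468 CPM in sham animals and between 2.02 and 497 CPM in RYGB animals, and their part in the spread was not tested. Agrp had medians of 32.2 and 53.4 and a log2 fold change of 1.07 ± 0.71 (SE, edgeR adjusted p = 0.313). The convertase Pcsk1, which cuts Pomc, stood at 0.48 ± 0.25, the paraventricular transcription factor Sim1 at 1.16 ± 0.62 and Bdnf at -0.12 ± 0.39 (SE, edgeR adjusted p = 0.188, 0.201 and 0.866). The remaining melanocortin receptors were barely seen. Mc1r, the pigment cell receptor, had at most 13 counts and Mc2r at most 3, with 0 in 53 of 65 libraries, and both failed the filter.

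**Figure D4:**
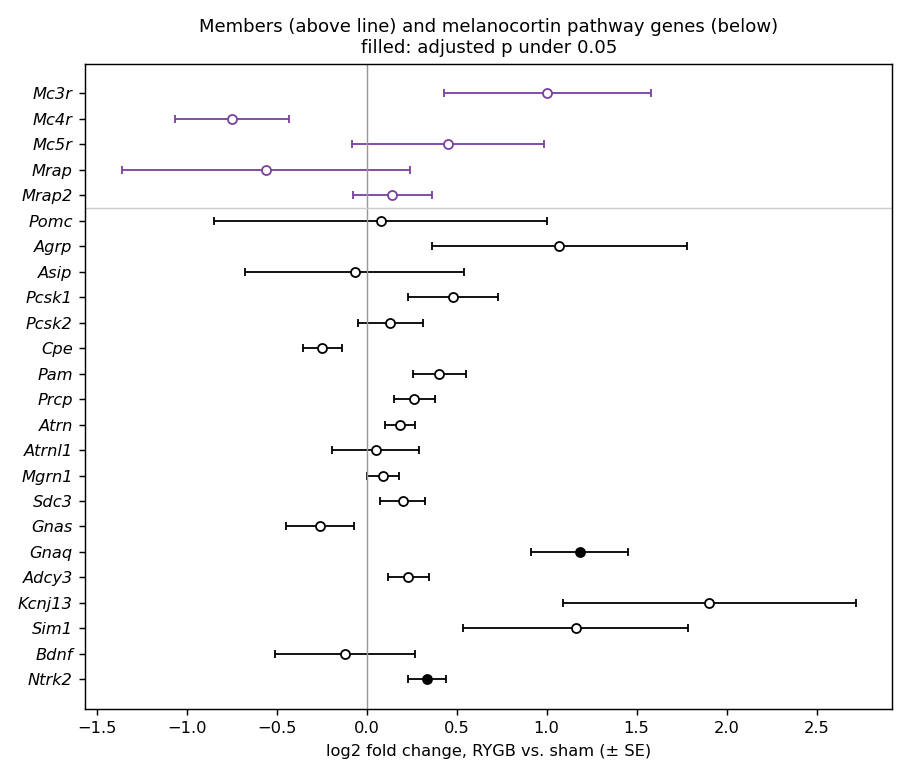
Log2 fold change ± SE of RYGB vs. sham for the 5 members (purple, above the line) and the 19 tested pathway genes (black, below), filled where the edgeR adjusted p was under 0.05. Gnaq at 1.18 and Ntrk2 at 0.34 are the filled points, and all members are open.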

How the data were processed

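The hypothalamus of each of 65 rats gave 1 RNA library. Per the methods and the submitters' processing notes, the authors demultiplexed with bcl2fastq 2.20.0.422, trimmed poly-A stranded reads with cutadapt (1.16 in the notes, with later versions also named in the methods), mapped them with STAR 2.7.2b to Rnor_6.0 and counted exons with featureCounts 1.6.4, splitting reads with several places into fractions. The deposited values are estimated counts (30.3% of nonzero values not whole at a tolerance of 1e-06) and, as a deposited column of another kind, exon lengths. Counts were rounded. Groups and batches came from the labels. Replicates are separate animals.

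edgeR 4.0.16 (R 4.3.3) was run once over all 65 libraries, with TMM scaling, filterByExpr (minimum count 10, total 15; 21871 genes kept), a robust quasi-likelihood model of group and batch, contrasts between groups and Benjamini-Hochberg adjustment over all genes. A gene was called at an adjusted p under 0.05. Confidence intervals are 95%. Within-batch values came from a model with a mean per group and batch. Normalized counts used DESeq2 1.42.0 size factors. Levels per kilobase and correlations used TMM-scaled CPM, as log2(CPM + 1) for correlations. The intervals are of the log2 fold change between groups, with an SE that rests on the variation between animals. The 12 low libraries had a summed hypothalamus level under 0.2 of the median, an alternative added after the data were seen. Further alternatives were DESeq2, its size factors, no filter, no batch term, a replicate block, each batch alone and leaving out each animal. Tests were checked on simulated data. Figures used matplotlib 3.10.9 under Python 3.11.15, and summaries pandas 2.3.3 and numpy 2.4.6.

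The 5 members and all lists were chosen with earlier results of these data known. Besides the members, the text names Pomc, Agrp, Mc1r and Mc2r, pathway genes called in any of 14 comparisons, Sim1, Bdnf and Pcsk1, and the 3 genes most like each member among genes with a mean CPM of at least 1, of which 1 is not reported here.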

Additional observations from a re-analysis of the deposited data

Results flagged for a closer look

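In 4 of 30 sets of 4 to 10 animals tested (1 member in 1 group each), a single animal stood far from the rest by Dixon's criterion. By chance it flags about 1 in 20 if values are normally distributed, which was not tested for these normalized counts. BWM replicate 1 had 329.8 normalized counts of Mc4r, with the next BWM animal at 139.3. That library had few hypothalamus markers. PYY3-36 replicate 4 had 175.6 normalized counts of Mc4r and the next animal 63.42. BWM replicate 6 had 181.5 normalized counts of Mrap against 24.86 in the next, and lean replicate 3 had 11.16 against 1.619. The Mrap call of RYGB vs. BWM rests on BWM replicate 6. None of the tested interactions between batches or hormones passed the threshold for any member.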

How the results depend on the processing

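The only call among the members, Mrap in RYGB vs. BWM, was lost with DESeq2 (-3.20), with its size factors (-3.18), without a filter on low counts (-3.16), with the replicate block (-2.10) and within batch A (-3.08), with adjusted p between 0.0515 and 0.365, and kept without a batch term and without the 12 libraries. Without a batch term, Mrap in BWM vs. sham (2.41) and Mc4r in RYGB vs. sham (-0.88) passed the threshold. No other member crossed the threshold under any of the settings tried on all animals, and the values of reversed sign, none past the threshold, are these. Without a batch term they were 0.11 for Mc3r in BWM vs. sham, -0.079 for Mc3r in PYY3-36 vs. saline, -0.092 for Mc4r in BWM vs. saline and -0.025 for Pomc in RYGB vs. sham. With the replicate block they were -0.98 for Agrp and -2.41 for Pomc in RYGB vs. sham, 0.20 for Mc3r in liraglutide vs. saline, -0.19 for Mc3r, -0.34 for Mc5r and -0.19 for Mrap2 in RYGB vs. saline, 0.082 for Mc4r in lean vs. sham and -0.068 for Mc5r and -0.017 for Mrap in RYGB vs. lean. Within batch A they were 0.35 for Mc3r and 0.054 for Mrap2 in BWM vs. sham, 0.23 for Mc3r, 0.023 for Mc4r and 0.082 for Mrap2 in lean vs. sham, -0.35 for Mc3r, -0.019 for Mc5r, 0.89 for Mrap and -0.18 for Mrap2 in RYGB vs. saline, 0.51 for Mrap in lean vs. saline, 1.397 for Mrap and -0.043 for Mrap2 in PYY3-36 + liraglutide vs. saline, 1.15 for Mrap in sham vs. saline and -0.88 for Pomc in RYGB vs. sham. Within batch B they were 0.83 for Bdnf in RYGB vs. sham, 0.42 for Mc3r in liraglutide vs. saline, 0.24 for Mc3r in PYY3-36 + liraglutide vs. saline, 0.39 for Mc3r, 0.039 for Mc5r and 0.23 for Mrap2 in sham vs. saline, -0.44 for Mrap in PYY3-36 vs. saline and 0.073 for Mrap2 in RYGB vs. PYY3-36 + liraglutide. Without the 12 libraries they were 0.099 for Bdnf, -0.061 for Mrap2 and -0.37 for Pomc in RYGB vs. sham, -0.099 for Mc3r in BWM vs. lean, -0.35 for Mc4r in BWM vs. saline, -0.34 for Mc4r in liraglutide vs. saline, 0.19 for Mc4r in RYGB vs. BWM, -0.10 for Mc5r and -0.15 for Mrap in RYGB vs. lean, -0.11 for Mc5r in RYGB vs. saline, -0.93 for Mrap in PYY3-36 vs. saline and 0.083 for Mrap2 in sham vs. saline. Leaving out 1 animal at a time moved the log2 fold change over 0, or ended the call, in these cases. For RYGB vs. sham the range ran from -0.23 to 0.38 for Bdnf and from -0.43 to 0.91 for Pomc. For BWM vs. lean the range ran from -0.14 to 0.56 for Mc3r and from -0.21 to 0.098 for Mrap2. For BWM vs. sham the range ran from -0.24 to 0.20 for Mc3r and from -0.31 to 0.0045 for Mrap2. For lean vs. sham the range ran from -0.58 to 0.12 for Mc3r, from -0.17 to 0.093 for Mc4r, from -0.0080 to 0.57 for Mc5r and from -0.24 to 0.085 for Mrap2. For liraglutide vs. saline the range ran from -0.59 to 0.070 for Mc3r, from -0.18 to 0.30 for Mc4r and from -0.035 to 0.22 for Mrap2. For PYY3-36 + liraglutide vs. saline the range ran from -0.36 to 0.087 for Mc3r and from -0.57 to 0.071 for Mrap. For PYY3-36 vs. saline the range ran from -0.39 to 0.40 for Mc3r and from -0.76 to 0.51 for Mrap. For BWM vs. saline the range ran from -0.39 to 0.29 for Mc4r and from -0.017 to 2.97 for Mrap. For RYGB vs. BWM the range ran from -0.46 to 0.18 for Mc4r and from -3.57 to -0.58 for Mrap. For RYGB vs. saline the range ran from -0.31 to 0.0038 for Mc4r, from -0.14 to 0.30 for Mc5r and from -0.024 to 0.17 for Mrap2. For lean vs. saline the range ran from -0.39 to 0.15 for Mc5r and from -0.30 to 0.015 for Mrap2. For RYGB vs. lean the range ran from -0.14 to 0.46 for Mc5r and from -0.11 to 1.54 for Mrap. For sham vs. saline the range ran from -0.24 to 0.39 for Mrap and from -0.19 to 0.032 for Mrap2. Ntrk2 lost its call with the replicate block (0.17) and kept it in 20 of 25 fits without 1 animal, and Gnaq kept its call in 25 of 25. Counts of called genes moved more. For RYGB vs. sham 2853 genes became 5587 without a batch term, 1618 with the replicate block, 1889 within batch A, 599 within batch B, 1177 without the 12 libraries and 1470 to 4938 without 1 animal (lowest without sham replicate 5, highest without RYGB replicate 11). For BWM vs. sham 70 became 228 with DESeq2, 2183 without a batch term, 1 with the block, 1154 within batch A and 5 to 408 without 1 animal (without BWM replicates 5 and 1). For RYGB vs. BWM 75 became 0 with the block, 43 within batch A, 122 without the 12 libraries and 2 to 166 without 1 animal (without BWM replicates 5 and 4). For lean vs. sham 0 became 5 with DESeq2, 2339 without a batch term, 15 within batch A, 1081 without lean replicate 6 and 300 without sham replicate 1 (number of genes past adjusted p < 0.05, lean vs. sham). For sham vs. saline 3 became 26 with DESeq2, 5 without a batch term and within batch B, 0 with the block and within batch A, and 1 to 186 without 1 animal (without sham replicates 8 and 1). For BWM vs. saline 9 became 19 with DESeq2, 122 without a batch term, 0 with the block and within batch A, and 0 to 26 without 1 animal (without BWM replicates 5 and 1). For BWM vs. lean 6 became 26 with DESeq2, 0 with the block and without the 12 libraries, and 0 to 114 without 1 animal (without BWM replicates 5 and 1). The other 7 comparisons had 0 or 1 called genes, 6 to 19 with DESeq2 and at most 7 under the other settings. Equal replicate numbers were not read as pairs. Over 171 pairs with the same number, within and across batches, the median correlation of deviations was 0.0197, the lowest -0.554, and 63 were over 0.1. For other numbers the median was -0.0045, and the share over 0.1 was not counted. All 40 group means kept their value within 1 SD with TMM-scaled CPM, and without the 12 libraries the correlations of Mc3r with Fezf1 and P2rx2 moved by over 0.1, to 0.81 and 0.76. Mc5r and Mrap rest on few counts, mostly under 20, but the SE of RYGB vs. sham was 0.53 for Mc5r, 0.80 for Mrap and 0.58 for the more abundant Mc3r, and the part of depth was not tested. All BWM and lean libraries belong to batch A and all single-hormone libraries to batch B, so their contrasts rest in part on the batch term. With 4 and 5 animals, the single-hormone groups leave intervals of over 1 log2 unit for Mc3r and Mc4r. The cause of the changed signs was not tested.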
